A study of Mus musculus with 924 samples.

Results

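The 81 genes for the proteins of the cytosolic ribosome, out of 25392 genes in the table, were followed across 924 single nuclei of mouse hippocampus. They were chosen by symbol alone: Rpl or Rps followed by digits and, for some, a, l, x or al, together with the stalk genes Rplp0, Rplp1 and Rplp2 and the small-subunit gene Rpsa. Kinase genes of the Rps6k family, pseudogene rows and hyphenated names were left out. The set holds 50 genes of the large subunit and 31 of the small subunit. Of 74844 member values (81 genes in 924 nuclei), 46179 were above 0.

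A ribosome joins a small subunit, which reads the messenger RNA, to a large subunit, which forms the peptide bond, and each subunit carries one copy of most of its proteins. Mature ribosomal protein (RP) messages are short, abundant and mostly cytoplasmic, while their precursors are made and spliced in the nucleus before export. The proteins return to the nucleolus, where subunits are assembled, and neurons also carry ribosomes in their dendrites. Ribosomal protein genes are spread over the genome, and many have processed pseudogenes, intronless copies of the message pasted elsewhere.

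The study isolated nuclei from microdissected, RNA-preserved tissue by sucrose gradient, sorted them singly into plates and sequenced them by a modified Smart-seq2 protocol, a full-length cDNA method. C57BL/6 mice of 12 weeks gave nuclei from dentate gyrus (DG, 305 nuclei in 4 preparations), CA1 (99 in 2) and CA2/3 (117 in 2). C57BL/6 mice of 4 weeks gave 113 nuclei and mice of 2 years gave 135, each in 2 preparations of which the label names DG for only 1. Animals of the vGAT-Cre strain, allele Slc32a1tm2(cre)Lowl, aged 12 weeks gave 133 nuclei from DG in 2 preparations and 22 nuclei from CA1, CA2 and CA3 together in 1. These mice express Cre in cells with the vesicular GABA transporter, and had received in dorsal and/or ventral hippocampus an AAV1/2 virus carrying a Cre-dependent EYFP-KASH nuclear tag, 2 weeks before sacrifice. Sorted and unsorted nuclei therefore differ in strain, virus and gate together, and the effects of these cannot be told apart.

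Nuclei of a group whose labels carry the same number are called a preparation. The labels do not say whether a preparation was a single animal or a pool, so p-values measure only how far preparations lay apart, which can be technical. Labels begin with 17 different column names (such as A1-P1-DG), called sets here. The deposited values are natural logs on the TPM scale (a read density per transcript length, scaled to a fixed total), and a level below is the mean of log2(value + 1) over nuclei. Genes detected per nucleus, the nearest available measure of depth, had a median of 4882.5 (2022 to 8008). Of the clusters named by marker genes, the pyramidal-like ones held 168 nuclei, the GABAergic-like 109 and the astrocyte-like 49, while most of the other nuclei were granule-like. The ribosomal protein genes were taken out before the 2000 variable genes for clustering were chosen. In the sorted DG preparations 49 of 133 nuclei were GABAergic-like, so the sort label does not stand for GABAergic nuclei alone.

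All 81 members matched the GENCODE vM21 annotation of GRCm38, on 19 chromosomes, with a median coding length of 453 bases (75 to 1257). A near copy, meaning a transcript of another gene with at least 95% identity over at least 80% of the coding sequence, existed for 75 of them. The median was 5 near copies and the most was 57, for Rpl21 (chr5:146832890-146837032, plus strand). Reads of such genes can be divided among copies, so their values are uncertain. Members without a near copy included Rpl8, Rps3, Rpl3l, Rpl39l and Rps27l. A small nucleolar RNA gene lay inside 29 of the 81.

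Many ribosomal protein messages begin in a run of C and T, the 5′ terminal oligopyrimidine tract through which their translation is controlled. Start windows from RefSeq (GRCm38.p6) were found for 61 of the 81 members, and in 17 of these (27.9%) a run of at least 8 C or T on the transcribed strand covered the annotated start. The same was true of 4.59% of the 27025 genes in that table. The windows below hold 40 bases before the start and 20 from it, with that run in capitals. They are shown because the first 6 carry the run and the last 2 do not, and because each kind holds members that were lower in sorted nuclei (Rpl27a, Rps6, Rplp2 and Rpl24) and members that were not called:
Rpl7a: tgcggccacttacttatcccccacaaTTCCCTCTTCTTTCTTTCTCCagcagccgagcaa
Rpl27a: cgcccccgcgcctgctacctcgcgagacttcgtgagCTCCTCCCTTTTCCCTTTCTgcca
Rpl15: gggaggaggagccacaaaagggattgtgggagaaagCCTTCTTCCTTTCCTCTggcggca
Rps18: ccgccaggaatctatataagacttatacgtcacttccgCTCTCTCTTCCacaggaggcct
Rps6: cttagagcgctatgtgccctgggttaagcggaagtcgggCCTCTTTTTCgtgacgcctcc
Rplp2: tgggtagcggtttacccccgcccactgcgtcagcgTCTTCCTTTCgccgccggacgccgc
Rpl24: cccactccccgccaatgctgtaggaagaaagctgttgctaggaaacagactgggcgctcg
Rps12: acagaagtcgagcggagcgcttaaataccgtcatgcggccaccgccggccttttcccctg
These windows lie at chr2:26910767-26910826 (plus strand) for Rpl7a, chr7:109519155-109519214 (plus) for Rpl27a and chr14:18270967-18271026 (minus) for Rpl15. They lie at chr17:33955646-33955705 (minus) for Rps18, chr4:86857348-86857407 (minus) for Rps6 and chr7:141447611-141447670 (plus) for Rplp2. For Rpl24 the window is chr16:55966235-55966294 (plus) and for Rps12 chr10:23787190-23787249 (minus). A run is a description of these letters, and annotated starts can lie some bases from the true ones. The Rps12 window holds a C or T run of the required length after its annotated start. It was not counted because it does not cover that start.

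Across sets, ribosomal protein transcripts were most plentiful in a set of 2-year DG nuclei and least in nuclei sorted from CA1 to CA3. The median nucleus of the set Old2-P2-DG-150211 had 67 of the 81 genes detected (value above 1) and a share of 3.90% of its summed value in these genes. In the sorted CA set (A1-CA123-VGAT-GFP) the median nucleus had 20.5 detected and a share of 0.795%. Over all nuclei the medians were 52 genes and 2.17%, and single nuclei ran from 7 to 78 genes. The highest set median was 4.91 times the lowest for the share and 3.27 times for the number detected.

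The 5 sets of 12-week DG had medians of 53 to 59 ribosomal protein genes and shares of 2.38% to 3.37%. Sets A1-P1-DG and A1-P2-DG belong to the same preparation and had shares of 2.44% and 3.37%, nearly the whole width of that range. The CA sets fell apart by number: 55 and 54.5 genes in the number 1 sets of CA1 and CA2/3, against 37.5 and 34 in the number 3 sets. Their shares were 1.56% and 1.89% against 1.01% and 1.06%, below every DG set. Sets of 4 weeks had 62 and 59 genes (2.52% and 2.28%), and those of 2 years had 61 and 67 (2.52% and 3.90%). Sorted DG sets had 44, 31.5 and 36 genes, with shares between 1.14% and 1.56%.

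Over preparations, the median share was 2.76% ± 0.28 (SD, n = 4) in 12-week DG, 1.29% ± 0.39 (n = 2) in CA1 and 1.48% ± 0.59 (n = 2) in CA2/3. It was 2.40% ± 0.17 (n = 2) at 4 weeks, 3.21% ± 0.98 (n = 2) at 2 years and 1.25% ± 0.04 (n = 2) in sorted DG. The DG preparations (2.38% to 3.01%) did not overlap those of CA1, CA2/3 or sorted DG, whereas the 2-year range (2.52% to 3.90%) overlapped DG.

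**Figure D1:**
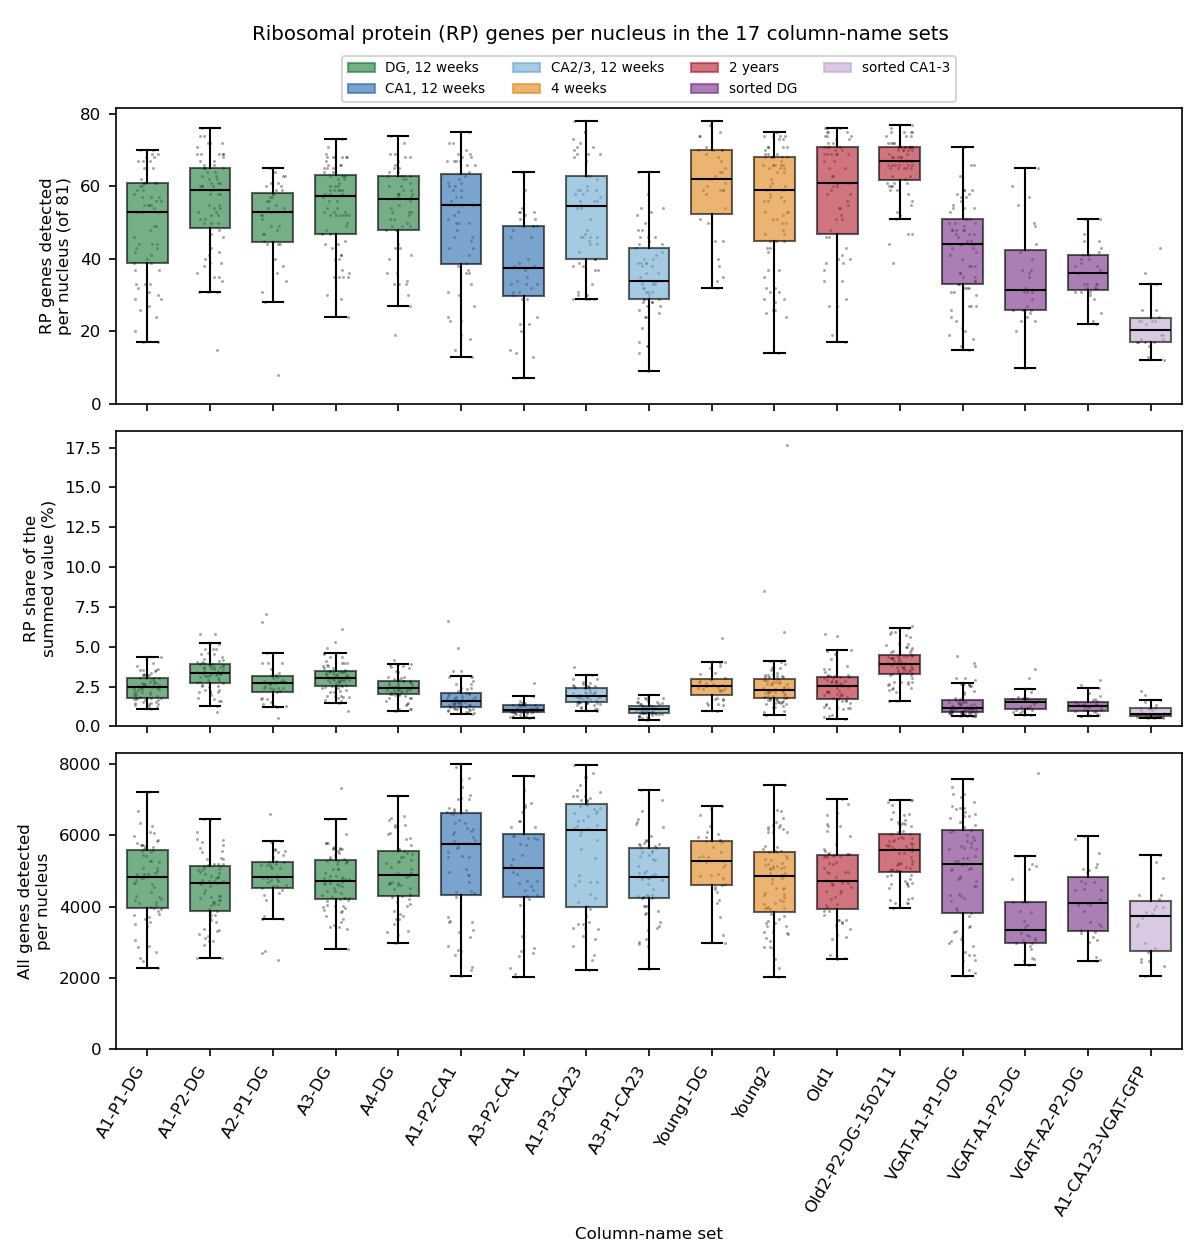
Ribosomal protein genes detected per nucleus (top), their share of the summed value in percent (middle) and all genes detected per nucleus (bottom) in the 17 column-name sets. Boxes are quartiles with the median, whiskers reach the last nucleus within 1.5 box lengths and dots are nuclei; set medians run from 20.5 to 67 ribosomal protein genes while the medians of all genes run from 3330 to 6139.5.

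The number of ribosomal protein genes detected increased with the number of all genes detected, with a within-set Pearson r of 0.32 to 0.87 (22 to 78 nuclei a set, which share library and plate). The share did not follow the same way (r of -0.57 to 0.22). Set medians of all genes ran from 3330 in VGAT-A1-P2-DG to 6139.5 in A1-P3-CA23, so the sets with most genes were not those with most ribosomal protein transcripts. Among the nuclei with 4000 to 6000 genes (57.6%), the median number of ribosomal protein genes was 54 to 61.5 in the DG sets, 60 in both 4-week sets, and 65 and 66 in the 2-year sets. It was 45.5 and 43 in the number 1 sets of CA1 and CA2/3 and 34.5 and 34 in the number 3 sets. In sorted DG it was 44, 42 and 37, and in sorted CA 24. The window held 20 of 59 and 12 of 56 nuclei of the number 1 CA sets, whose medians of all genes were 5757 and 6139.5. It held 22 and 42 nuclei of the number 3 sets, 31, 8 and 18 of sorted DG and 7 of sorted CA. Raising the detection limit to a value of 10 hardly touched the numbers of ribosomal protein genes. Only 9 of the 46179 member values above 0 were at or below 10.

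Shares also varied between the cell classes of 1 preparation, here given without a test. In DG preparation 1 the 93 granule-like nuclei had a median share of 3.06% and the 11 GABAergic-like ones 3.24%, above the 19 pyramidal-like (2.13%) and 6 astrocyte-like nuclei (2.22%). In CA2/3 preparation 3 the 14 granule-like nuclei led with 1.43%, and the 31 pyramidal-like (0.983%), 7 GABAergic-like (1.01%) and 7 astrocyte-like nuclei (0.954%) lay close together. Granule-like nuclei of sorted DG preparations 1 and 2 had 1.52% (43 nuclei) and 1.40% (14 nuclei), near those of CA2/3 preparation 3 and below the 2.40% to 3.18% of granule-like nuclei in the 4 unsorted DG preparations. GABAergic-like nuclei had 1.03% and 1.24% in sorted DG, 0.696% in sorted CA (17 nuclei) and 3.24% and 1.80% in unsorted DG preparations 1 and 3.

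The members themselves spanned a wide range of levels, given here as the mean of the 17 set levels on the log2 scale per length. Rps2, of the small-subunit body, led with 10.28 and was detected in 91.6% of nuclei. Rpl3, which reaches toward the peptide-bond centre of the large subunit, had 10.01, and Rpl21 had 9.77. Rpl5, which with Rpl11 carries the 5S ribosomal RNA and can bind Mdm2, had 8.91 against 6.62 for Rpl11. Rpl4 (8.88), Rpl41 (8.62), the shortest of all cytosolic ribosomal proteins, Rpl19 (8.55) and Rpl13 (8.51) completed the 8 highest. Between neighbours in that order the differences were small beside the range over sets, which was 3.84 for Rps2, 7.68 for Rpl3 and 3.48 for Rpl21. Of the 81 genes, 66 were detected in at least 50% of nuclei.

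At the other end stood paralogs of other members. Rpl3l, known from heart and skeletal muscle, was detected in 5 of 924 nuclei (0.541%, 95% exact interval 0.176% to 1.26%) at a level of 0.04. Rpl39l, known from the testis, was detected in 7 nuclei (0.758%, 0.305% to 1.55%), against 33.2% of nuclei for Rpl39, with which it shares 85% of coding bases. Rpl10l, known from male germ cells, was detected in 32 nuclei (3.46%, 2.38% to 4.85%), against 77.1% for Rpl10, whose coding sequence is 84.7% identical. Rps27l was detected in 104 nuclei (11.3%, 9.29% to 13.5%) and Rps27 in 64.2%, at 77.3% identity. Rpl36a and Rpl36al (87.7% identity) were instead nearly level, at 3.96 and 3.95 and detected in 43.4% and 42.2% of nuclei. Intervals cover the counting of nuclei only. Rpl37 (2.10, 243 nuclei) was the lowest member that is no such paralog.

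Rpl10l was not spread evenly. Among granule-like nuclei it was detected in 12 of 52 of 2-year preparation 1 (23.1%, 95% exact interval 12.5% to 36.8%). It was detected in 1 of 69 nuclei of the other 2-year preparation (1.45%, 0.0367% to 7.81%), in 2 of 27 and 2 of 69 at 4 weeks, and in 0 of 93, 0 of 40, 0 of 64 and 1 of 51 at 12 weeks. By the limit of 3 counts of the total, a count of 0 allows a share of up to 3.23%, 7.50% and 4.69% in those 3 preparations, and the exact upper bounds are 3.89%, 8.81% and 5.60%. The high value belongs to 1 preparation without a region label.

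The ribosomal stalk, on which elongation factors dock, is built on Rplp0 with dimers of Rplp1 and Rplp2. Rplp1 had the widest range of any member, 9.64: its set level was 11.06 in Old2-P2-DG-150211, 8.90 to 9.94 in the 12-week DG sets, 7.15 and 3.54 in CA1, 7.89 and 3.88 in CA2/3, and 1.42 in sorted CA. Rplp2 ran from 2.75 to 9.46 and Rplp0 from 3.05 to 8.74. Next in range came Rps15 (9.16), Rps26 (8.79), Rps25 (8.58) and Rps29 (8.48), all of the small subunit. Rps26 was detected in 0 of 22 nuclei of the sorted CA set, which allows a share of up to 13.6% by the limit of 3 counts (exact upper bound 15.4%). Old2-P2-DG-150211 was the highest set and sorted CA the lowest for each of Rplp1, Rps15, Rps26, Rps25 and Rps29.

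**Figure D2:**
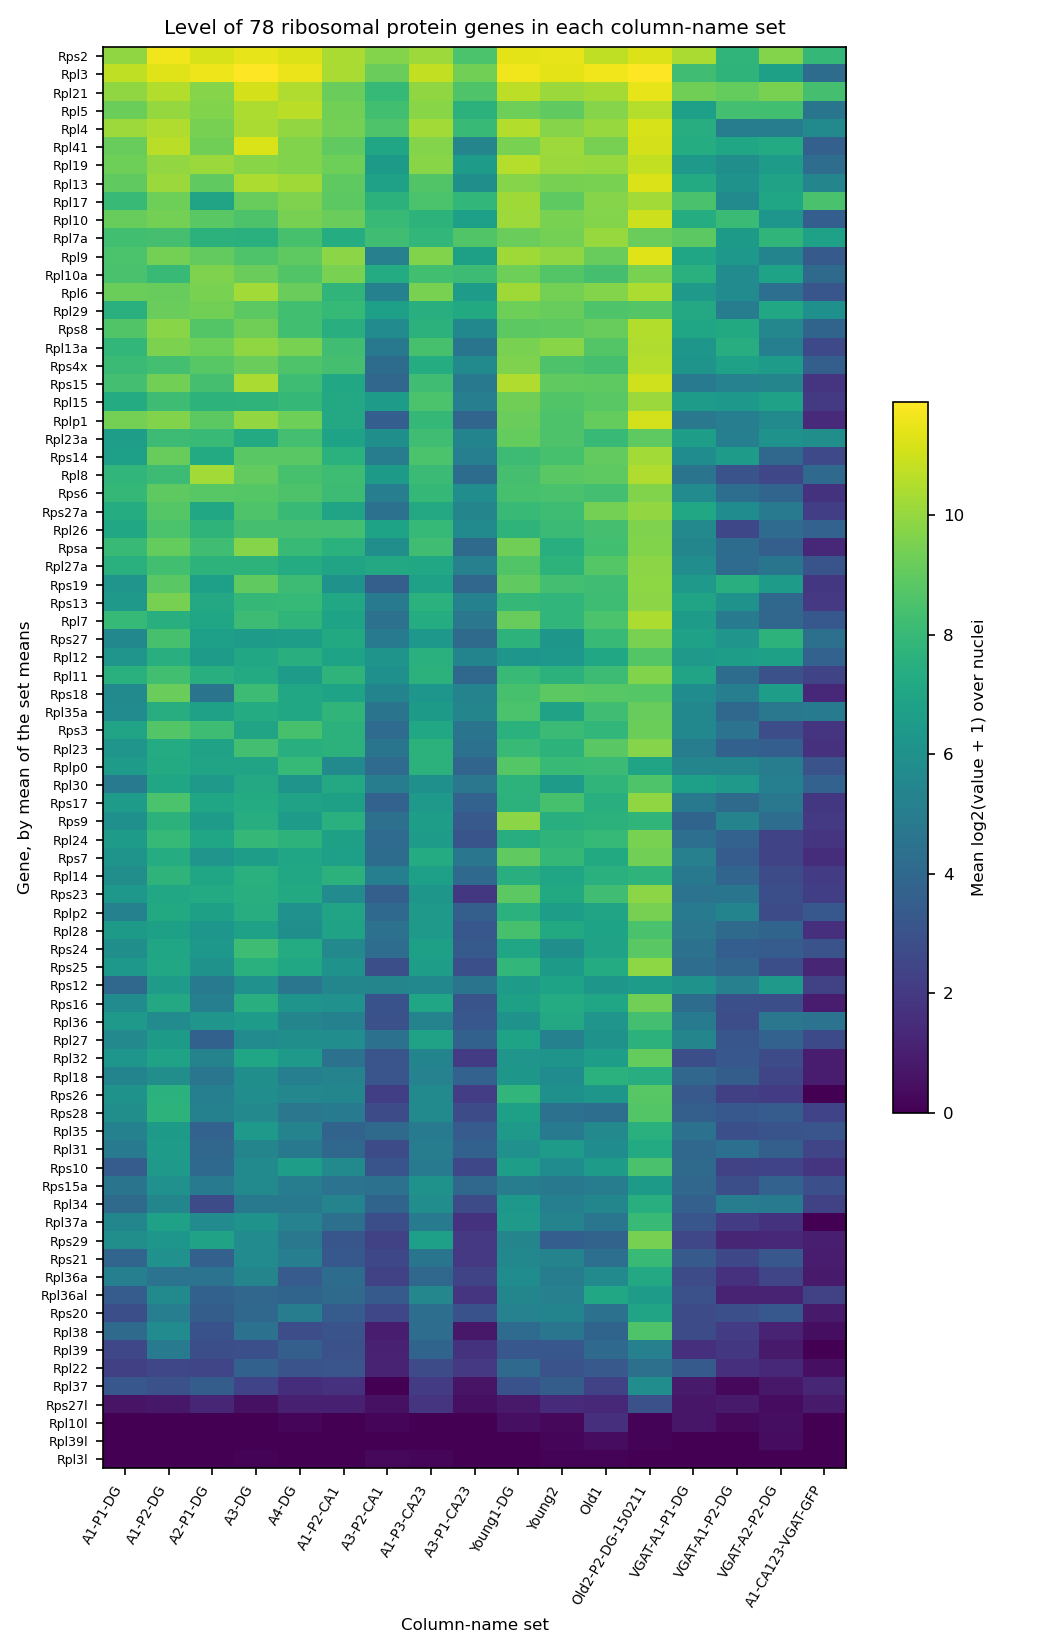
Colour shows the level of 78 of the 81 genes, as the mean of log2(value + 1) over nuclei, in each of the 17 sets, with genes ordered by their mean level. The 2-year set Old2-P2-DG-150211 is high and the sorted CA set low over most rows, while Rps2 and Rpl21 stay high throughout and Rpl3l, Rpl39l and Rpl10l are near 0 in most sets.

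Nuclei sorted from vGAT-Cre DG had lower levels of most ribosomal protein genes than unsorted 12-week DG nuclei. Of the 77 members tested, 61 were lower and 0 higher at an adjusted p of 0.05 (limma across all genes, Benjamini-Hochberg), 37 of 47 in the large subunit and 24 of 30 in the small subunit. Of all 10374 genes tested, 21.6% were called lower and 6.78% higher. After quantile normalization 45 members were lower and 2 higher (Rps12 and Rps27), with 16% and 17.1% of all genes, and with no filter 57 were lower and 1 higher (Rpl10l), with 7.6% and 4.08% of all genes. The median difference was -2.38 for the members, -2.21 for the large and -2.54 for the small subunit, against -0.30 for all genes. Levels did not overlap between groups, with sorted lower, for 64 members, against 31% of all genes. The median level over members was 7.04, 6.85, 7.44 and 7.20 in the unsorted and 5.03 and 3.95 in the sorted preparations, and 67, 62, 70 and 67 against 44 and 33 members were detected in at least 50% of nuclei. A mean level joins how many nuclei hold a transcript and how much each holds, so each was also read alone. Members were detected in fewer sorted nuclei for 73 of 81, with a median difference of -18.7 percentage points, and where detected their level was lower for 76 of 77 with a median difference of -0.89. The same split was not made for all genes, of which 60.4% had a lower mean level in sorted DG.

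Rpl8, a large-subunit protein at the peptide-bond centre with no near copy, differed most. Its level was 7.99, 10.25, 9.03 and 8.41 in the 4 unsorted preparations and 4.16 and 2.51 in the sorted ones, and it was detected in 71.9% to 92.5% against 40.2% and 25.8% of nuclei. All unsorted preparations lay above both sorted ones. The difference was -5.59 (SE 0.62, adjusted p = 1.64e-06). Rpsa, also known as the laminin receptor precursor, had 8.59, 8.25, 9.74 and 8.01 against 5.11 and 3.58, a difference of -4.30 (SE 0.58, adjusted p = 1.27e-05). Both genes fell without overlap.

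Rpl6 was at 9.16, 9.49, 10.22 and 9.15 in unsorted and at 6.26 and 4.33 in sorted preparations (-4.21, SE 0.54, adjusted p = 7.12e-06). Rpl24 was at 7.27, 6.96, 7.90 and 7.69 against 4.17 and 2.42 (-4.16, SE 0.58, adjusted p = 1.86e-05). In both of these large-subunit genes sorted preparation 2 was the lower of the sorted pair. Rpl4 (10.02 ± 0.41 SD, n = 4, against 5.87 ± 1.21, n = 2) fell by 4.15 and the stalk gene Rplp1 (9.40 ± 0.44 against 5.26 ± 0.59) by 4.14. Rps29, a small zinc-binding protein of the small subunit, was at 5.85 ± 0.87 (n = 4) against 1.75 ± 0.61 (n = 2) and fell by 4.10.

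Other members by role fell as well. Of the stalk, Rplp2 had a difference of -2.70 (adjusted p = 0.00287) and Rplp0 of -1.99 (adjusted p = 0.00827), which makes the stalk members unequal in size of change, although the differences between them were not tested. Of the 5S particle, Rpl5 had -2.38 (SE 0.45) and Rpl11 -2.74 (SE 0.69). The calls of Rplp2, Rplp0 and Rpl11 were lost without sorted preparation 2 (adjusted p of 0.131, 0.0698 and 0.273), as was that of Rps27a (0.222). Rps27a, made as a fusion to ubiquitin, had -2.11 (SE 0.58), X-linked Rps4x -2.24 (SE 0.48) and Rps6, the substrate of S6 kinases, -4.04 (SE 0.53). The most abundant member, Rps2, was at 10.79, 11.18, 11.43 and 11.26 against 9.68 and 9.67. It fell by 1.49 (SE 0.33, adjusted p = 0.00164), less than most members. With the log2 of the mean value in place of the mean of logs, the calls of Rps2, Rpl5 and Rpl6 were lost. The call of Rps2 was also lost under quantile normalization, with genes detected as covariate and with the replicate block, and that of Rps4x among granule-like nuclei.

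The 16 members tested and not called included Rpl17, Rps19, Rpl31, Rpl15, Rps20, Rpl27, Rpl21, Rpl22, Rps18, Rpl30, Rpl12, Rpl7a, Rpl34, Rps27 and Rps12. Rpl7a was at 8.34, 7.64, 7.57 and 8.42 in unsorted and 8.24 and 7.79 in sorted preparations (difference 0.02, SE 0.48). Rps12 was at 5.32, 4.90, 6.03 and 4.66 against 5.81 and 6.37 (0.86, SE 0.57, adjusted p = 0.265). Rps27 was at 7.04, 6.69, 6.52 and 6.65 against 6.63 and 7.67 (0.42, SE 0.52). For these 3 genes the groups overlapped. Rpl21, with most near copies, was at 10.38 ± 0.59 against 9.37 ± 0.15 (-1.02, SE 0.40, adjusted p = 0.0595) and did not overlap.

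**Figure D3:**
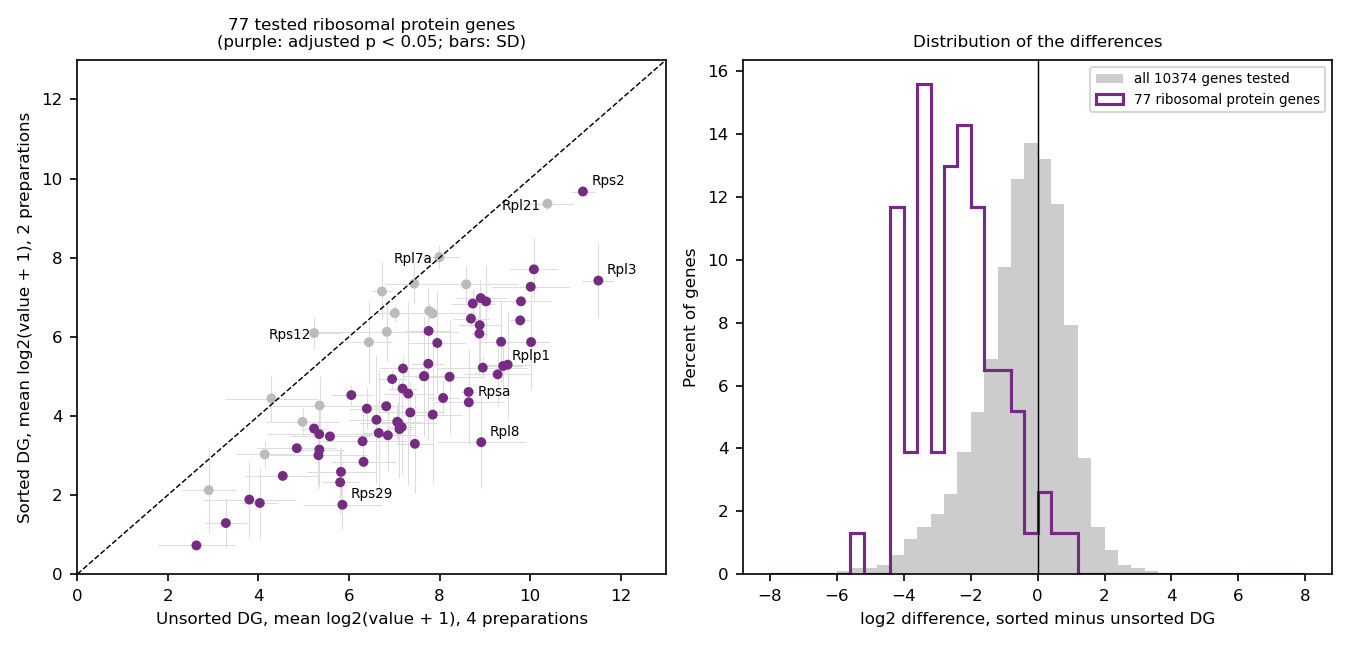
Left, level in sorted DG (mean of 2 preparations) against level in unsorted 12-week DG (mean of 4) for each member tested, as log2(value + 1) with SD bars, called members in purple and equal levels on the dashed line; right, percent of genes at each log2 difference for the 77 members (line) and all 10374 genes tested (grey). Of the 77 members 73 lie below the dashed line, with Rpl8 farthest from it, and Rps12 lies above.

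The size of the difference varied with the number of near copies. The 3 tested members without one had a median difference of -3.82, and all 3 were called. The median was -2.58 for 31 members with 1 to 4 near copies (27 called), -2.31 for 26 with 5 to 9 (21 called) and -1.61 for 17 with 10 or more (10 called). Across the 77 members Spearman's rho was 0.31, as a description, since genes of the same libraries are not independent. For other properties rho was -0.27 (coding length), -0.20 (percent of nuclei detected), -0.19 (mean level) and -0.10 (exons). Near copies themselves went with mean level (rho 0.38 over the 81 members), so these properties are not separate. With a C or T run at the start the median was -2.02 (17 members, 12 called), and in the matched members without one it was -2.59 (40 members, 34 called). Among the printed windows with a run, Rps6 (-4.04), Rpl27a (-2.66) and Rplp2 (-2.70) were called, while Rpl15 (-1.12), Rps18 (-0.71) and Rpl7a (0.02) were not.

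**Figure D4:**
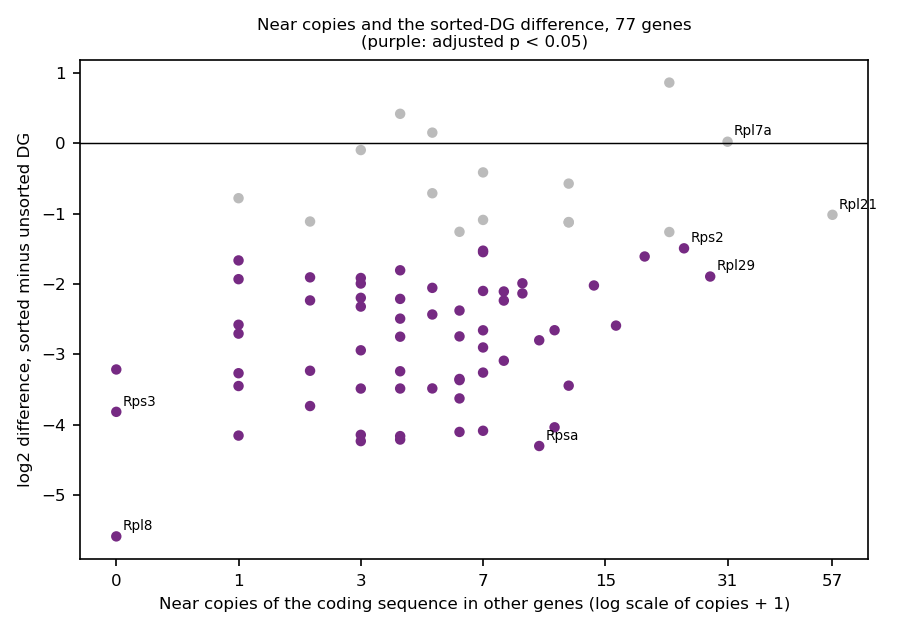
Difference in level between sorted and unsorted DG on the log2 scale for the 77 members tested (dots, called ones in purple), against the number of near copies of the coding sequence on a log axis of copies plus 1. Rpl8 without a near copy lies lowest at -5.59, and Rpl21 with 57 lies at -1.02.

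Cell makeup moved with this comparison, and the median number of detected genes was lower in sorted preparation 2. Nuclei of that preparation had a median of 4104 genes and those of sorted preparation 1 had 4745. Sorted preparation 1 joins unlike sets, with medians of 5189 genes in VGAT-A1-P1-DG (74 nuclei) and 3330 in VGAT-A1-P2-DG (28 nuclei). The unsorted preparations had 4725, 4828, 4729 and 4888. All 12 granule markers were called lower in sorted DG, with summed levels of 64.5 to 89.3 in unsorted and 32.4 to 41.4 in sorted preparations. Of 11 tested GABAergic markers (15 listed) 8 were called higher, with sums of 15.7 to 22.7 against 43.4 to 47.4, and Slc32a1 was detected in 1.72% to 7.41% of unsorted against 23.5% and 9.68% of sorted nuclei. Among granule-like nuclei alone 53 of 77 members were lower (16.1% of all genes), with a median of -2.36. With genes detected per nucleus as covariate 34 members were lower (5.71% of all genes). Without sorted preparation 2 the count was 41 (10.9% of all genes lower), and with 1 sorted preparation left the lone one is assumed to vary like the other group.

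Genes that act beside the ribosomal proteins were taken as lists. Of 3 companions 2 were lower, among them the fusion gene Fau (-3.28), and Gnb2l1, the Rack1 scaffold, had -1.26 without a call. Of 22 translation factors 14 were lower and 0 higher, with a median of -1.86. Among them, the initiation and elongation factor genes Eif5a (-3.30), Eef1b2 (-3.22), Eef1g (-2.80) and Eef1a1 (-2.39) fell. Of 22 tested ribosome biogenesis genes 9 were lower and 1 higher (median -0.74). Nucleolin (Ncl, -2.37) and nucleophosmin (Npm1, -2.16) were among the 9, and Las1l, an endonuclease subunit of ribosomal RNA processing, was the higher one (2.42). Of 2 paralogs outside the rule Rpl22l1 was lower (-2.66) and Rpl7l1 had 0.75 without a call. Of 4 pseudogene rows 1 was lower (Rps15a-ps4, -1.32). These counts stand beside 6.78% of all genes called higher and 21.6% called lower.

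Between regions, excitatory-like nuclei of DG had higher levels than those of CA1 for 69 of 78 members and than those of CA2/3 for 74 of 78, but none was called (limma, 0 of 78 in each). The smallest adjusted p was 0.0514 for CA1 (Rplp1) and 0.0618 for CA2/3 (Rpl13). At an unadjusted p under 0.05, 14 members were higher than in CA1 (4.98% of all genes) and 21 than in CA2/3 (5.31%). The adjusted test called 2.15% and 1.82% of all genes higher in DG, and 9.43% and 5.87% lower. The members' median difference was 1.23 against CA1, where all genes had -0.51, and 1.31 against CA2/3, where all genes had -0.42. The 2 comparisons share the DG preparations. Between CA1 and CA2/3 the median was 0.18 (all genes 0.10), with 0 of 78 called (0.168% of all genes) and 0 at an unadjusted p under 0.05 (7.93%).

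The spread lay between the CA preparations. The median level over members was 7.17, 6.85, 7.53 and 7.20 in DG, 7.74 and 4.43 in CA1 preparations 1 and 3, and 7.22 and 4.23 in CA2/3 preparations 1 and 3. Thus the CA preparations numbered 1 lay in or above the DG range and those numbered 3 well below it. Members detected in at least 50% of excitatory-like nuclei numbered 62 to 70 in DG, 67 and 36 in CA1, and 67 and 36 in CA2/3. Rplp1 had 9.70, 8.90, 10.17 and 9.11 in DG, 8.10 and 3.63 in CA1, and 7.92 and 4.01 in CA2/3, with a difference of 3.60 (SE 1.12) against CA1. Rps29 had 5.95, 6.85, 5.73 and 4.72 in DG and 3.41 and 1.90 in CA1, but 6.94 and 2.06 in CA2/3. Rps2 had 10.78, 11.18, 11.36 and 11.15 in DG, 10.89 and 10.02 in CA1, and 10.52 and 8.91 in CA2/3. All DG preparations lay above both CA preparations in 14 of 78 members for CA1 (7.35% of all genes) and 19 of 78 for CA2/3 (7.75%).

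Which CA preparation was kept decided the count. Without CA1 preparation 1, 21 members were called higher in DG than in CA1 (3.13% of all genes, median 2.55), and without CA1 preparation 3, 0 were (0.737%, median -0.16). Without CA2/3 preparation 1, 20 of 77 were called against CA2/3 (1.7%), and without preparation 3, 0 were (1.63%, median 0.30). Leaving out either CA2/3 preparation gave 12 calls against CA1 (3.27% and 3.25% of all genes higher), and leaving out CA1 preparation 1 or 3 gave 9 and 10 against CA2/3 (2.82% and 2.86%), since the comparisons share 1 estimate of the spread. Granule markers were called higher in DG in both comparisons (12 of 12), so region goes together with cell type here. The number of detected genes moved with this: excitatory-like nuclei had medians of 4738.5 to 4844.5 genes in DG, 6121 and 4977 in CA1, and 6396 and 4943 in CA2/3. As a covariate it raised the count to 61 against CA1 (9.3% of all genes higher, 6.51% lower) and 62 against CA2/3 (9.61%, 6.11%). The members' median difference then was 3.57 against CA1 and 3.24 against CA2/3. Genes detected differed mostly between CA preparations 1 and 3, so in CA this covariate cannot be told apart from preparation number. Quantile normalization gave 25 against CA1 (5.3%, 5.57%) and 19 against CA2/3 (4.64%, 4.12%). The part of the number of detected genes in the result was not otherwise tested.

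**Figure D5:**
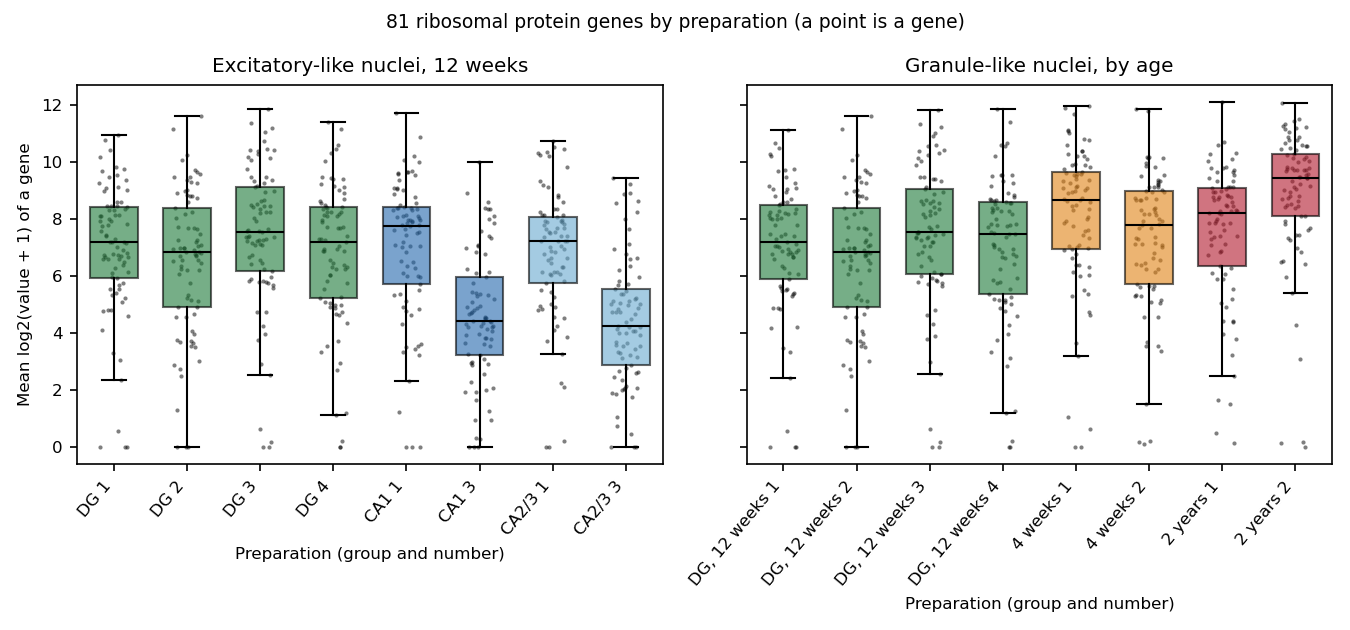
Levels of the 81 genes (dots, mean log2(value + 1)) in excitatory-like nuclei of the region preparations (left) and granule-like nuclei of the age preparations (right); boxes are quartiles with the median over genes. CA1 and CA2/3 preparations numbered 3 (medians 4.43 and 4.23) lie below the DG preparations (6.85 to 7.53), and 2-year preparation 2 (9.46) lies above.

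In granule-like nuclei both other ages had higher levels than 12 weeks for most members, with few calls. At 4 weeks 70 of 79 members were above 12 weeks with a median difference of 0.72 (all genes 0.10), and 6 were called higher, against 5.93% of all genes. At 2 years 77 of 79 were above with a median of 1.25 (all genes 0.15), and 1 was called higher, against 0.179% of all genes. At an unadjusted p under 0.05 the counts were 17 (14.3% of all genes higher) and 40 (8.23%). The 2 comparisons share the 12-week preparations. Granule-like nuclei had medians of 4464, 4828, 4757 and 4869 genes detected at 12 weeks. The medians were 5409 and 4937 at 4 weeks, and 4774.5 and 5618 at 2 years. With genes detected as covariate the 2-year median difference was 0.64 (all genes -0.17), with 61 members above 12 weeks and 18 below. The median level over members was 7.18, 6.85, 7.53 and 7.48 at 12 weeks and 8.67 and 7.79 at 4 weeks. At 2 years it was 8.20 and 9.46, so neither other age overlapped 12 weeks. With the log2 of the mean value the median difference at 4 weeks was -0.04 (all genes -0.01), with 38 members above and 41 below. At 2 years it was 0.22 (all genes -0.01), with 62 above and 17 below. The 4-week difference thus rests on the mean of logs. The median share of granule-like nuclei was 3.06%, 2.72%, 3.18% and 2.40% at 12 weeks. It was 2.57% and 2.29% at 4 weeks, and 2.62% and 3.96% at 2 years.

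The 6 genes called at 4 weeks came from both subunits. Rps18, in the head of the small subunit, was at 7.48, 4.55, 8.64 and 7.10 at 12 weeks and 9.55 and 9.11 at 4 weeks (2.39, SE 0.71, adjusted p = 0.0248). Rps7 was at 6.90, 6.20, 6.84 and 7.02 against 9.66 and 8.14 (2.16, SE 0.62, adjusted p = 0.0203). Rps12 was at 5.41, 4.90, 6.05 and 4.29 against 8.07 and 6.46 (2.10, SE 0.65, adjusted p = 0.0338). In these 3 every 4-week value lay above every 12-week value. Rps9 was at 6.86, 6.55, 7.64 and 6.76 against 10.38 and 7.68, so its second 4-week preparation lay just above the highest 12-week one (2.08, SE 0.64, adjusted p = 0.0323). Rpl9 was at 8.80, 9.02, 8.57 and 8.77 against 11.08 and 10.18 (1.84, SE 0.52, adjusted p = 0.0175). Rpl23a, at the exit of the peptide tunnel, was at 7.39, 8.04, 7.48 and 7.98 against 9.82 and 8.97 (1.67, SE 0.56, adjusted p = 0.0495). Without 4-week preparation 1, 0 of 79 members were called (2.88% of all genes higher) and the median difference was 0.28. Without DG preparation 1, 2 or 4 the counts were 3 (4.43%), 1 (4.71%) and 2 (4.51%). With genes detected per nucleus as covariate the median was 0.08 (all genes -0.21), with 3 members higher (5.31% of all genes) and 2 lower (9.33%).

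At 2 years the called gene was Rpl36al, the paralog of Rpl36a. It was at 4.85, 3.71, 3.88 and 3.94 at 12 weeks, 6.04 and 5.66 at 4 weeks, and 7.39 and 6.47 at 2 years, and was detected in 35% to 46.2%, 59.3% and 59.4%, and 75% and 62.3% of nuclei. Every value of the older and of the younger mice lay above 12 weeks. The difference at 2 years was 2.83 (SE 0.62, adjusted p = 0.0452), and at 4 weeks 1.75 (SE 0.62, adjusted p = 0.0679) without a call. The call at 2 years was lost when any of the 4 DG or 2 preparations of 2 years was left out, with an adjusted p of up to 0.219. Rpl36a was at 4.84, 4.55, 6.06 and 3.32 at 12 weeks and 5.91 and 7.31 at 2 years, where the groups overlapped.

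Values of members not called at 2 years follow. Rps27 was at 7.03, 6.69, 6.66 and 6.68 at 12 weeks, 8.01 and 6.24 at 4 weeks, and 8.29 and 9.78 at 2 years (2.27, SE 0.62, adjusted p = 0.126). Its paralog Rps27l was at 0.56, 1.30, 0.61 and 1.18 at 12 weeks and 1.49 and 3.07 at 2 years (1.37, SE 0.40, adjusted p = 0.149). Rps29 was at 6.34, 6.85, 5.82 and 5.0 at 12 weeks, 5.50 and 3.54 at 4 weeks, and 4.39 and 9.72 at 2 years, so the 2-year preparations lay on either side of 12 weeks. Levels at 2 years did not overlap those at 12 weeks for 34 of 79 members (16.1% of all genes higher). At 4 weeks 17 of 79 were higher without overlap (17.8% of all genes). Between 2 years and 4 weeks the median difference was 0.60 (all genes 0.07) and 0 of 79 members were called (2.39% of all genes), with 8 at an unadjusted p under 0.05 (13.9%). The median at 2 years against 12 weeks was 1.95 without 2-year preparation 1 and 0.56 without preparation 2, and against 4 weeks it turned to -0.12 without preparation 2.

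Markers moved with age too. Of 12 granule markers 8 were called lower at 4 weeks, with summed levels of 84.1 to 95.2 at 12 weeks, 57 to 65.6 at 4 weeks and 75.9 to 91 at 2 years, and their part in the result was not tested. Restricted to preparations labelled DG, with 1 left at each of the other ages, 17 of 78 members were called higher at 4 weeks (10.3% of all genes) and 17 at 2 years (0.727%). In that fit the spread comes from the 12-week preparations alone, and the lone preparations are assumed to vary like them. Of the 22 translation factors 3 were higher at 4 weeks, namely Tpt1 (3.95), Eif3e (2.96) and Eif3h (2.36), and 1 at 2 years (Tpt1, 2.56). None of the 3 companions was called at either age, and of the biogenesis genes 1 of 23 was at 4 weeks (Polr1b, 1.23) and 0 at 2 years. Against CA1 0 of 22 translation factors and 4 of 24 biogenesis genes (all lower in DG, as were 9.43% of all genes) were called, and against CA2/3 none of either.

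Between cell classes of the same preparation few members differed. GABAergic-like and excitatory-like nuclei of 6 preparations, paired by preparation, differed in 3 of 78 members (11.1% of all genes), with a median of -0.29 (all genes 0.07). That median was -0.02 without DG preparation 3 and -0.55 without DG preparation 1. The median level over members was lower in GABAergic-like nuclei in 4 of the 6 preparations and higher in DG preparation 1 (8.31 against 7.17) and sorted DG preparation 2 (4.33 against 3.74). These 3, named after their values were seen, were Rpl27a (-2.29, SE 0.63, adjusted p = 0.0120), Rps14 (-1.88, SE 0.63, adjusted p = 0.0464) and Rpl17 (1.62, SE 0.53, adjusted p = 0.0401). Rpl27a was lower in the GABAergic-like nuclei of all 6: 5.01 against 8.07, 2.72 against 4.84, 6.56 against 8.12, 5.15 against 7.94, 5.03 against 6.58 and 3.20 against 5.85. Rps14 was likewise lower in 6 of 6, and Rpl17 was higher in 5 of 6, with sorted DG preparation 1 the other way. Only Rpl27a kept its call whichever of the 6 preparations was left out, with adjusted p up to 0.0395, against up to 0.137 for Rps14 and 0.230 for Rpl17. Over preparations the 2 classes overlapped in all 3 genes. GABAergic-like nuclei numbered 5 to 37 a preparation, which limits each mean.

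Astrocyte-like nuclei of 3 preparations had lower levels than the excitatory-like ones for 63 of 77 members, with a median of -1.03 (all genes -0.34), and 3 were called lower (4.95% of all genes). Rpl10a was at 6.26, 3.54 and 4.02 in astrocyte-like and 8.64, 8.44 and 9.06 in excitatory-like nuclei (-4.11, SE 0.90, adjusted p = 0.00348). Rpl13 was at 3.94, 6.11 and 4.67 against 6.62, 9.35 and 7.75 (-3.0, SE 0.89, adjusted p = 0.0330). Over preparations neither overlapped, whereas Rpl6 (3.34, 7.07 and 2.10 against 6.77, 9.55 and 6.37) did (-3.39, adjusted p = 0.0196). Within each preparation, as the fit compares them, all 3 genes were lower in astrocyte-like nuclei. Astrocyte-like nuclei had fewer genes detected, with medians of 3442, 3289 and 3304 against 4943, 4738.5 and 4729, and its part in the result was not tested. Without sorted DG preparation 1 the count was 0 (2.22% of all genes lower), and without CA2/3 preparation 3 it was 7 (5.26%).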

How the data were processed

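The deposited table holds natural log values on the TPM scale for 25392 genes in 924 nuclei of mouse hippocampus, per the labels and a check of the log base on pairs of nuclei. The submitters' processing notes name Bowtie2, RSEM 1.27, mm10 and GRCm38; further settings are not given in the sources used here. Values were back-transformed, and their totals per nucleus exceeded the fixed total of TPM, so no read depth can be had from them. Levels are the mean of log2(value + 1) over nuclei of a preparation, with a pseudocount of 1. The size of a difference depends on this choice. In sorted DG the members' median was -2.38, against -1.81 with a pseudocount of 10 and -1.24 with the log2 of the mean value. Nuclei were clustered with scanpy 1.11.5 (2000 variable genes, 20 components, 15 neighbours, leidenalg 0.10.2 at resolution 1.0) and clusters named from at least 3 markers. The detection limits for naming were set after the clusters were seen. No doublet caller was run, and 151 nuclei with at least 5 markers of each of 2 classes were kept. Genes detected in at least 20% of nuclei of 1 preparation were tested with limma 3.58.1 (R 4.3.3) on preparations of at least 10 nuclei, or 5 for class comparisons, which kept the preparation as a block. P-values were adjusted over all genes by Benjamini-Hochberg with a threshold of 0.05, and the fit was tested on simulated data.

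The members and lists were chosen with earlier results of these data known. Named genes were the 8 highest and 5 lowest by mean level, up to 8 called genes per comparison whose groups do not overlap, the stalk genes, Rpsa, paralog pairs, Rpl5, Rpl11, Rps27a, Rps4x, Rpl22, the 5 with the widest range, and up to 4 per list. Others, such as Rps6, Rpl7a, Rpl15, Rps12 in sorted nuclei and the members not called, were named after their values were seen. Values of a few genes are not reported here by name. Alternatives were other pseudocounts, filters, scalings, covariates, nuclei and left-out preparations.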

Additional observations from a re-analysis of the deposited data

Results flagged for a closer look

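In the 4 preparations of 12-week DG, 44 groups of values were tested for a value standing apart from the rest by Dixon's test, and 3 were picked out, where chance gives about 1 in 20. Rplp0 was at 7.97 in preparation 4, against 6.91, 6.92 and 6.96 in the others. Rpl10l was at 0.18 in preparation 4 and at 0 in the others, and Rpl3l at 0.13 in preparation 3 and at 0 in the others. For both paralogs the value rests on 1 nucleus, and with 3 of 4 values at 0 any detection is picked out, so only Rplp0 bears on the comparison with chance.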

How the results depend on the processing

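Counts of ribosomal protein genes called by limma depended on the processing as follows. Against CA1 the 0 calls became 5 when values were rescaled to a total of 1000000, 25 with quantile normalization, 61 with genes detected per nucleus as covariate and 8 with all nuclei. Over all 11324 genes, those called higher went from 243 to 304, 600 and 1053 in the first 3 of these settings. Against CA2/3 the members' calls became 7, 19, 62 and 5, and those of all genes went from 206 to 274, 525 and 1088. There 305 of 11147 genes were called higher with all nuclei. Between CA1 and CA2/3 the count was 0 in every setting run. For sorted DG the 61 calls became 34 with the covariate. At 4 weeks the 6 calls became 0 with the log2 of the mean value, 0 with no filter, 3 rescaled, 11 with quantile normalization, 0 with all nuclei and 17 in sets labelled DG. At 2 years the 1 call became 0 with no filter, the log2 of the mean value, rescaling, all nuclei or a pseudocount of 10. Genes called higher went from 19 to 2, 0, 8, 6 and 10 in that order. The 1 call became 2 with quantile normalization, with the covariate and in nuclei of at least 4000 genes. There 45, 49 and 43 genes were called higher. In sets labelled DG, with 1 preparation left at 2 years, the members' median difference was 1.95. Between 2 years and 4 weeks the 0 calls became 2 higher with the covariate and 2 higher in nuclei of at least 4000 genes. Over all genes those called higher went from 105 to 259 and 187. In sets labelled DG, with 1 preparation left at each age, the members' median difference was 0.67. The 3 GABAergic-like calls became 0 with the log2 of the mean value, 1 with no filter, 5 with quantile normalization and 0 in nuclei of at least 4000 genes. The 3 astrocyte-like calls became 0 with the log2 of the mean value, 1 with no filter, 6 with a filter at 50% of nuclei, 7 rescaled and 0 with the covariate. That fit called 0 of 11747 genes (smallest adjusted p 0.958) and so says nothing about the members; nuclei of at least 4000 genes were too few there to run. For the class comparisons, counts over all genes in the other settings are not given here. The cause of these changes was not tested.

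With the preparation number as a replicate block 9 members were called higher against CA1, 6 against CA2/3 and 1 at 4 weeks. Over all genes 143 and 131 of 11324 and 292 of 10638 were. At 2 years 0 members were called (5 of 10638 genes higher), and for sorted DG 47 were lower (1116 of 10374 genes). Without a replicate block the class comparisons gave 0 for GABAergic-like and 1 for astrocyte-like nuclei. Preparations of the same number had correlated deviations in CA1 and CA2/3 (0.414) but between -0.171 and 0.138 elsewhere, so the numbers were not taken as pairs. Leaving out 1 preparation gave 0 to 21 calls against CA1, 0 to 20 against CA2/3, 41 to 63 for sorted DG, 0 to 8 at 4 weeks, 0 to 1 at 2 years, 0 to 4 between 2 years and 4 weeks, 2 to 3 for GABAergic-like and 0 to 7 for astrocyte-like nuclei. The ratio of highest to lowest set, 4.91 for the share, was 2.42 for a share of log2 values. In nuclei with 4000 to 6000 genes it was 5.81, and that of genes detected was 2.75 instead of 3.27. The lowest set there, sorted CA, held 7 such nuclei. The range of set medians of the level was 5.47 after rescaling instead of 7.0. Of 283 values for 17 named results under alternatives, 205 kept their call, 78 lost it and 0 reversed. Most groups hold 2 preparations, near copies can take reads from members, and no read depth is known.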

Other observations

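Other lists of genes in sorted against unsorted DG stood as follows, beside 6.78% of all genes called higher and 21.6% called lower. Of 78 tested genes of oxidative phosphorylation, the mitochondrial respiratory chain and ATP synthase, 59 were lower and 0 higher (median -2.15), among them Cox6a1 (-5.43), Uqcr11 (-5.24), Cox5b (-4.98) and Ndufa4 (-4.86). Of 12 short cytoplasmic messages 11 were lower and 1 higher (median -2.91), with the calmodulin gene Calm2 at -4.74 and Cox8a at -4.0. Of 67 tested genes of mitochondrial ribosomal proteins 21 were lower and 0 higher (median -1.03), with Mrps26 at -2.93 and Mrpl12 at -2.61. Of 7 nuclear noncoding RNAs 4 were higher and 0 lower (median 1.81): Rian (2.82), Snhg11 (2.77), Mirg (2.41) and Meg3 (1.81).

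Between regions these lists had few calls. Against CA1, 2 of 80 oxidative phosphorylation genes and 3 of 74 mitochondrial ribosomal protein genes were lower in DG and 0 higher, with medians of -0.46 and -0.61, where the cytosolic members had 1.23 and 9.43% of all genes were called lower. Against CA2/3, where 5.87% of all genes were, 1 and 2 were lower, with medians of -0.07 and -0.41. At 2 years 2 of the 88 listed oxidative phosphorylation genes, Atp5l (3.17) and Ndufc2 (3.00), were higher than at 12 weeks. Of all genes tested there, 0.179% were called higher. The list median was 0.98, against 0.15 for all genes.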
